A study of Rattus norvegicus with 8 samples.

Results

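Keratins and the proteins of the desmosome were examined in the enamel organ of the rat incisor at the secretory and the maturation stage. The members are the array probes whose gene symbol is a numbered keratin (Krt, or the older rat names beginning Ka and Kb), a desmoglein, a desmocollin or a plakophilin, or is Dsp, Jup, Evpl, Ppl, Perp, Vim, Ivl, Lor or Sfn. The rule used symbols alone and no measured value. It found 59 probes of 58 genes among the 22523 probes and 21527 genes of the array: 25 type I keratins, 16 type II keratins, 6 probes of desmosomal cadherins, 9 genes of the desmosomal plaque and its plakin and membrane partners, and single probes of involucrin (Ivl), stratifin (Sfn) and vimentin (Vim). No probe carried the symbols Krt5, Krt18, Dsg1, Dsg3 or Lor.

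Each of 4 male Wistar rats (Wistar Hannover in the study's methods), untreated and 4 weeks old, gave a secretory-stage and a maturation-stage sample from the mandibular incisor, and each of the 8 samples was read on a RatRef-12 v1 BeadChip array, an Illumina platform on which many beads bear each probe. The tissue was the multicellular layer left on the enamel surface after the bone was removed, so that it held the ameloblasts, the other layers of the enamel organ and attached tissue. In such bulk samples fewer cells of a type and less RNA per cell cannot be told apart. Values are log2 signals after background correction and quantile normalization, changes are maturation minus secretory on that log2 scale, and a probe was called when limma's Benjamini-Hochberg adjusted p over all probes was below 0.05 and the fold was at least 1.8. Levels of different probes were not compared, since each probe binds with its own strength.

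Keratins are intermediate filament proteins that pair as a type I with a type II partner and span the epithelial cell from desmosome to desmosome. A desmosome joins neighbouring cells through the cadherins desmoglein and desmocollin, whose tails bind plakoglobin (Jup) and the plakophilins, which in turn hold desmoplakin (Dsp), the anchor of the keratin filaments. In the enamel organ ameloblasts, the stratum intermedium and, during maturation, the papillary layer are all epithelial and are bound to each other by such junctions, and single keratins and FAM83H are known for their part in enamel formation and its inherited defects.

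A pair of short motifs was counted in the promoters of the keratins and of the other members. Promoters of 300 bases, 250 before and 50 from the annotated start on, were found in the RefSeq table of the GRCr8 assembly for 43 of the 58 genes. The letters TATAAA, on either strand, were present in 20 of 29 keratin promoters (69%), in 1 of 14 promoters of the other members (7.14%, that of Vim) and in 14.2% of all 33469 promoters. A forward TATAAA whose first base lay between -40 and -20 occurred in 8 of the 29 keratin promoters (27.6%), in 0 of the other 14 and in 1.37% of all promoters. GGGCGG, the letters of a GC box, also on either strand, was present in 3 of the 29 keratins (10.3%), in 11 of the other 14 (78.6%) and in 33.1% of all. These are letter matches in the reference, not measured binding sites, and keratin genes of a cluster share ancestry. In several keratins, among them Krt8, Krt27 and Krt42, the annotated start falls on the letters atg, those of a start codon. There the stretch from -40 to -20 need not be the core promoter, so the 8 of 29 is not a core-promoter frequency.

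Windows of 120 bases, from -110 to 10 bases after the start, are shown for 5 genes called higher at the maturation stage, where the motifs can be set beside the changes below, and for Krt28, the chromosomal neighbour of Krt27, which was not called. They lie at chr7:135010330-135010449 for Krt8, chr10:84874256-84874375 for Krt12, chr10:84800122-84800241 for Krt27 and chr10:84824848-84824967 for Krt28, all on the minus strand, at chr3:64040885-64041004 on the plus strand for Pkp4, and at chr5:151111845-151111964 on the minus strand for Sfn (GRCr8, written 5′ to 3′ along the gene). Capitals mark TATAAA and GGGCGG on either strand, so the reverse matches read TTTATA and CCGCCC, and the capitals at the left end of the Pkp4 window belong to a match that begins before it.
Krt8: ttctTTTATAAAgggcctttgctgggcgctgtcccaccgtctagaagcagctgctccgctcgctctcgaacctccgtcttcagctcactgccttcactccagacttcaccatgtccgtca
Krt12: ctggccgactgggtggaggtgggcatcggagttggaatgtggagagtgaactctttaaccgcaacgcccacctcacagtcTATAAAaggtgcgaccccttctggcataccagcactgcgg
Krt27: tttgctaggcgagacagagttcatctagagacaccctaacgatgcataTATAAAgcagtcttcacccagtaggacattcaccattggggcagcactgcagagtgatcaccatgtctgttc
Krt28: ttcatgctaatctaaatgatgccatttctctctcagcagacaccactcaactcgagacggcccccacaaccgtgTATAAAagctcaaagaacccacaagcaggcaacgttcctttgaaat
Pkp4: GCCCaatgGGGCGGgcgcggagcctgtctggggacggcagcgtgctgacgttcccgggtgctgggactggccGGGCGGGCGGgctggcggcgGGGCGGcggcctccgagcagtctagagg
Sfn: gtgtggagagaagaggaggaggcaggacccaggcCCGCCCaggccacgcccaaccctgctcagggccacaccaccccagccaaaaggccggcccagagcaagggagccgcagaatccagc
The first base of TATAAA lay at -30 in Krt12, -36 in Krt28 and -62 in Krt27, whereas in Krt8 a forward and a reverse match overlapped, the first of them from -106. In Krt27 and Krt8 the annotated start falls on the letters atg, those of a start codon. Their positions are therefore not on the same footing as those of Krt12 and Krt28. Neither Pkp4 nor Sfn held TATAAA. Pkp4 held 5 matches to GGGCGG in its whole promoter and Sfn held 1. TATAAA and GGGCGG share no stretch and cannot overlap each other.

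Most ameloblast markers separated the stages. All 4 maturation markers measured, Klk4, Slc24a4, Car6 and Cftr, rose. Of 5 secretory markers Enam, Mmp20 and Dspp fell, and Amelx, with a difference of -0.53 (adjusted p 0.0555), and Ambn, with one of -0.36 (adjusted p 0.0353) and overlapping stages, were not called. Enam, an enamel matrix gene of the secretory stage, stood at 9.08 and 8.22 in maturation replicates 1 and 4 against 5.17 and 5.53 in replicates 2 and 3, and at 11.94 to 12.03 in the secretory stage. Mmp20 (6.96 and 6.30 against 5.92 and 5.55), Amelx and Ambn (14.53 and 14.17 against 13.96 and 14.13) were also higher in those 2 arrays than in replicates 2 and 3. The maturation markers Slc24a4 (12 and 12.12 against 12.22 and 12.16) and Cftr (6.83 and 6.96 against 7.55 and 6.99) were lower in them, by narrow margins. Dspp, undetected in all 4, and the maturation markers Klk4 and Car6 did not set the pair apart. With those 2 arrays left out, an alternative added after the data were seen, 12 members were called higher and 2 lower, and the 13 calls made with all arrays were among them. For maturation replicates 2, 3 and 4 the titles and tissue labels, which were used, conflict with a source label that reads secretory. Detected probes (detection p below 0.05) numbered 10667 to 11450 per array.

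In the maturation stage 11 members rose and 2 fell. The genes that rose were the plaque proteins Pkp2, Dsp and Pkp4, the desmosomal cadherin Dsg2, the keratins Krt27, Krt8, Krt16, Krt12, Krt19 and Krt15, and Sfn. Those that fell were the plakin Evpl and the keratin Krt17. The 13 calls were 22% of the 59 member probes, beside 7.75% of all probes tested, of which 4.60% were called higher and 3.15% lower. At the adjusted p alone 23 members passed, 15 higher and 8 lower, against 26.9% of all probes. The 4 maturation arrays did not overlap the 4 secretory arrays in 23 members (39.0%), against 27.7% of all probes.

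Many members gave no signal in either stage, about as often as probes of the whole array. Detection reached all 8 arrays for 20 of the 59 members and 9156 of the 22523 probes, and none of them for 23 members and 9011 probes. The median change was 0.05 over all members and -0.01 over all probes. Among probes detected on all 8 arrays the median size of the change, regardless of sign, was 0.68 for members and 0.33 for all probes. Krt16 and Krt15 were undetected in the secretory stage, so their folds are lower bounds, and with bounds in place of fitted folds 9 members were called higher and 2 lower.

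**Figure D1:**
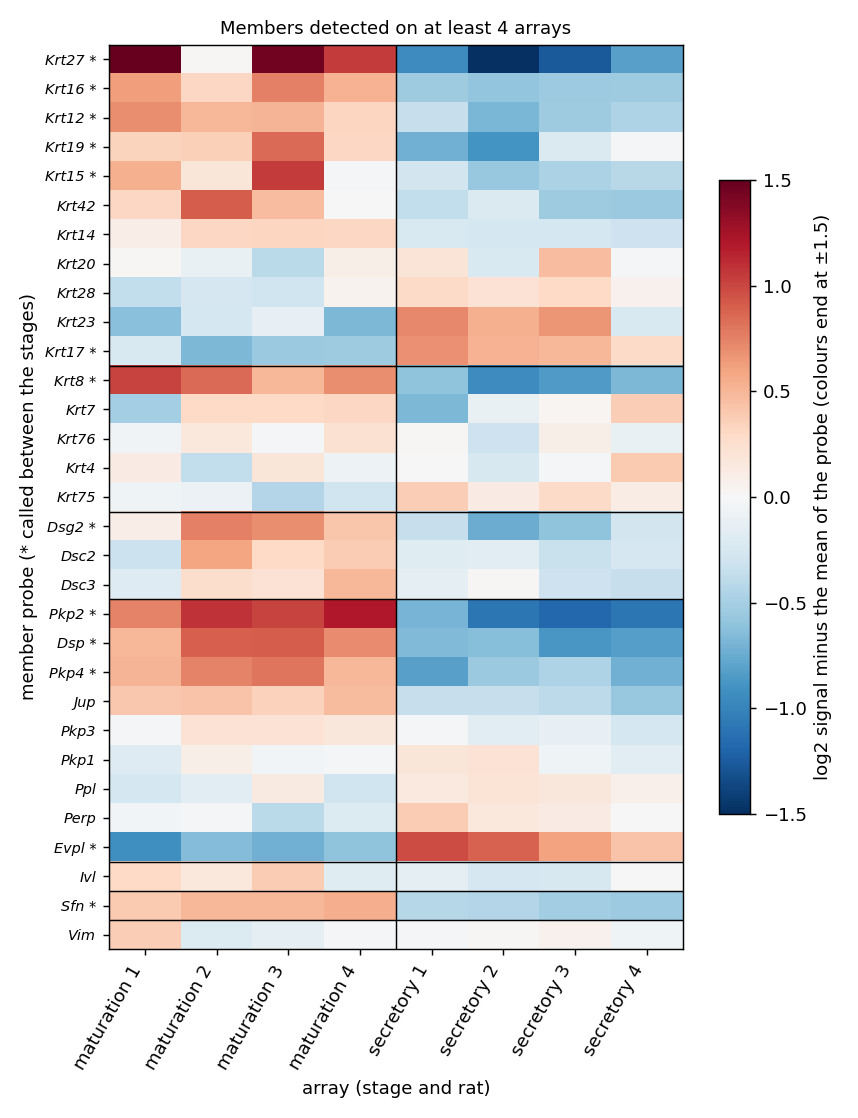
Heat map of the 31 member probes detected on at least 4 of the 8 arrays, with the arrays on the horizontal axis and each probe's log2 signal minus its own mean as colour (red above, blue below, colours ending at 1.5). Lines separate type I keratins, type II keratins, desmosomal cadherins, plaque proteins with plakins and Perp, Ivl, Sfn and Vim, and asterisks mark the 13 called probes, 11 of them redder in the maturation arrays and 2, Krt17 and Evpl, bluer.

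Among the desmosomal cadherins, Dsg2 rose while both desmocollins that were detected missed the threshold. Dsg2, the desmoglein of simple epithelia and of heart muscle, measured 5.73, 6.38, 6.33 and 6.04 in maturation replicates 1 to 4 and 5.28, 4.89, 5.03 and 5.35 in the secretory replicates. All maturation values lay above all secretory values, although the probe was dim and was detected on 3 of the 4 secretory arrays. The change was 0.98 (SE 0.155, 1.98-fold, limma adjusted p 9.89e-04), and the call was lost under the other background corrections, with normexp, a model of signal plus noise, fitted without negative controls (0.76), with an offset of 50 in place of 16 (0.58) and without correction (0.32). A second Dsg2 probe was undetected on every array, with a change of 0.12 (adjusted p 0.354), so the rise rests on 1 of 2 probes.

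Dsc2, a widely expressed desmocollin, measured 5.63, 6.55, 6.25 and 6.33 in the maturation stage and 5.77, 5.78, 5.62 and 5.70 in the secretory stage, a difference of 0.47 (95% interval 0.09 to 0.85, adjusted p 0.0707). Dsc3, the desmocollin of basal stratified epithelium, differed by 0.39 (0.07 to 0.71, adjusted p 0.0740). In both genes maturation replicate 1 lay among the secretory values and the other 3 maturation replicates above them. Dsg4 and Dsc1, cadherins of hair and of the upper epidermis, were undetected on all 8 arrays.

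Of the 9 genes of the plaque and its partners, 3 rose and 1 fell (44.4% called, beside 7.75% of all probes). In 7 the stages did not overlap (77.8%, beside 27.7% of all probes). Pkp2, the plakophilin of simple epithelia and heart, measured 7.93, 8.26, 8.20 and 8.38 in the maturation stage and 6.48, 6.10, 6.0 and 6.10 in the secretory stage. The maturation value was higher in all 4 rats, with within-rat differences from 1.45 to 2.28. Its change was 2.02 (SE 0.124, 4.07-fold, adjusted p 2.31e-06).

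Desmoplakin, the link between plaque and filament, measured 10.48, 10.88, 10.89 and 10.69 in the maturation stage and 9.32, 9.34, 9.11 and 9.16 in the secretory stage. The lowest maturation value exceeded the highest secretory value by more than the whole range of either stage. The change was 1.5 (SE 0.101, 2.83-fold, adjusted p 4.19e-06). Pkp4, an armadillo protein related to p120-catenin and found at desmosomes and adherens junctions alike, measured 12.33, 12.56, 12.62 and 12.31 against 11, 11.26, 11.35 and 11.10. Its within-rat differences, 1.33, 1.30, 1.27 and 1.21, were nearly equal, and the change was 1.28 (SE 0.101, 2.42-fold, adjusted p 1.19e-05).

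Plakoglobin, shared by desmosomes and adherens junctions, came close to the fold threshold. Jup measured 10.91, 10.94, 10.85 and 10.98 in the maturation stage and 10.17, 10.17, 10.12 and 9.94 in the secretory stage. The stages did not overlap and the spread within each was small, with a difference of 0.82 (SE 0.0680, 1.77-fold, adjusted p 1.58e-05). It was called under cyclic loess (0.89), under median scaling (1.11) and without normalization between arrays (1.31).

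The plakophilins differed from each other. Pkp3, present in most layers of stratified epithelium, differed by 0.29 (1.22-fold, adjusted p 0.0187). Pkp1, the plakophilin of the suprabasal epidermis, measured 10.26 to 10.55 in the maturation stage and 10.30 to 10.67 in the secretory stage, with a difference of -0.09 (95% interval -0.31 to 0.13) that became 0.21 under median scaling and 0.41 without normalization between arrays. Thus 2 of the 4 plakophilins rose by the call, and the change of Pkp2 exceeded that of Pkp1 by 2.11 (SE 0.112 over the 8 arrays) and the change of Pkp4 exceeded it by 1.37 (SE 0.146). These pairs, and the others given below, were picked after the values were seen and were not tested.

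Envoplakin, which with periplakin joins desmosomes and keratin to the cornified envelope, fell. Evpl measured 5.19, 5.46, 5.39 and 5.50 in the maturation stage and 7.08, 6.99, 6.71 and 6.53 in the secretory stage. It was detected on all 8 arrays, with every secretory value above every maturation value. The fall was 2.73-fold (change -1.45, SE 0.126, adjusted p 2.13e-05), and it was short of the fold threshold without background correction (-0.57). Ppl, its partner, was near background, detected on 1 maturation and 3 secretory arrays, and differed by -0.30 (adjusted p 0.0440). The change of Evpl was lower than that of Ppl by 1.15 (difference -1.15, SE 0.158).

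Perp, a tetraspan membrane protein needed for desmosome assembly and known from mice to matter for enamel, measured 12.32, 12.34, 11.95 and 12.15 in the maturation stage and 12.74, 12.52, 12.48 and 12.35 in the secretory stage. The stages did not overlap, by a narrow margin. The difference was -0.33 (95% interval -0.58 to -0.09) with an adjusted p of 0.05 after rounding, and it turned to 0.06 without normalization between arrays.

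**Figure D2:**
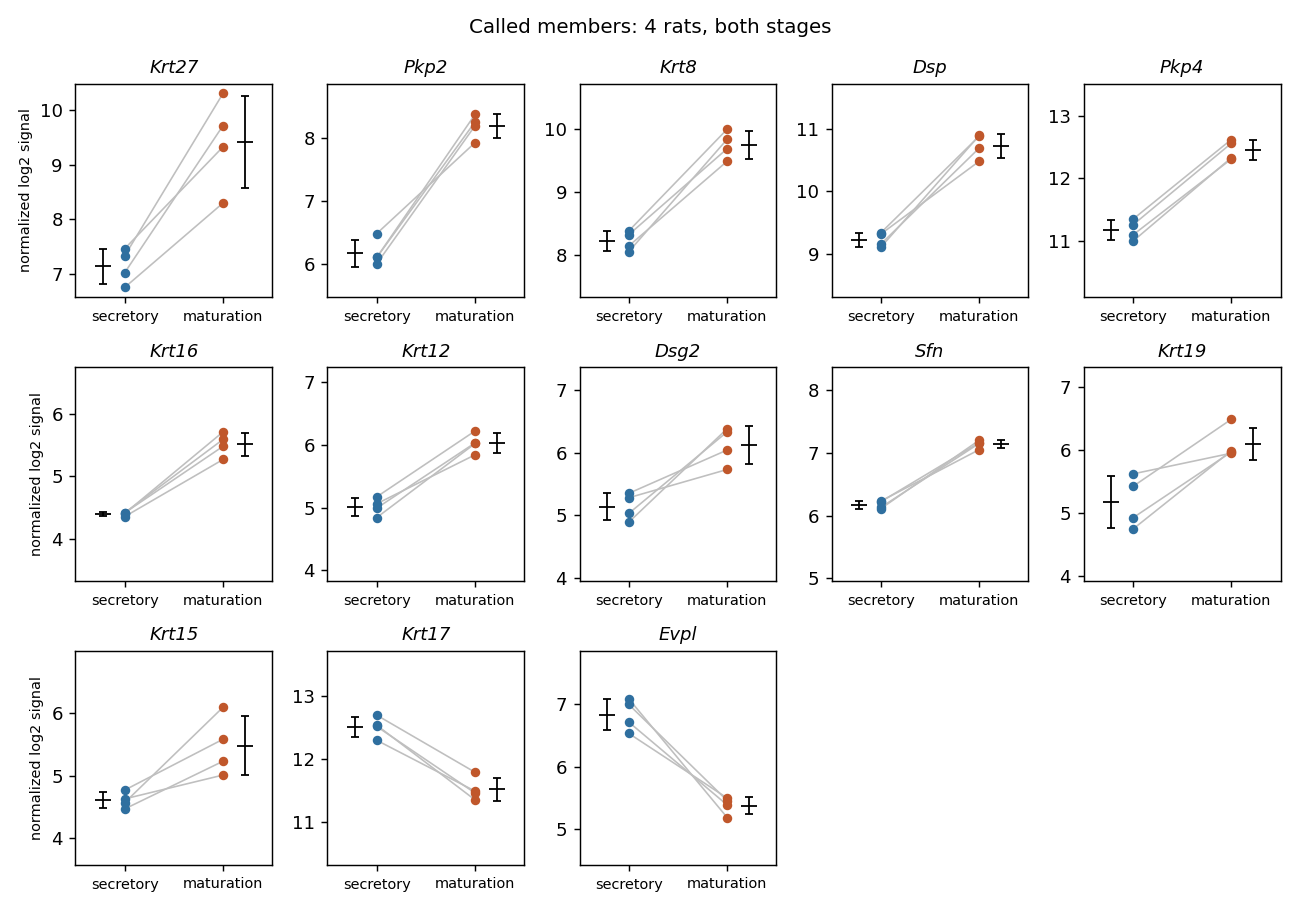
Normalized log2 signal (vertical axis, with a range of its own in each panel) of the 13 called members in the secretory and maturation stages of 4 rats. Points are arrays, grey lines join the 2 samples of a rat, and bars beside them give the mean and SD, and all 4 lines rise in 11 panels and fall in those of Krt17 and Evpl.

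Krt27 had the largest change of the 59 members, and the largest SE. It is a type I keratin known from the inner root sheath of the hair follicle, and the array lists it under the older name Ka40. It measured 10.31, 8.30, 9.72 and 9.33 in the maturation stage and 7.33, 6.75, 7.02 and 7.46 in the secretory stage. Rat 2 was lowest in both stages, and the within-rat differences ran from 1.56 to 2.98. The change was 2.28 (SE 0.367, 4.84-fold, adjusted p 0.00112). On the deposited scale, before correction, the signal was 474.5 to 1734 in the maturation stage and 179.5 to 223.8 in the secretory stage.

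The neighbouring keratins of the hair follicle's inner root sheath were not called. Krt28 was detected on 1 maturation and 4 secretory arrays and differed by -0.43 (adjusted p 0.00885), near background, where the offset compresses changes. Krt25 was detected on 3 maturation arrays and 0 secretory arrays, measured 5.71, 4.99, 4.66 and 5.02 in the maturation stage, and lay at 4.52 to 4.99 in the secretory stage, so that its fold was at least 1.04 (adjusted p 0.192). Krt26, which neighbours Krt27 on chromosome 10, was undetected throughout. In the GRCr8 order of this cluster Krt24, Krt25, Krt26, Krt27, Krt28, Krt10, Krt12, Krt20 and Krt23 follow each other with 0 protein-coding genes between them, and of these 9 only Krt27 and Krt12 were called.

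Krt12, the type I keratin of the corneal epithelium, rose. It measured 6.22, 6.02, 6.03 and 5.84 in the maturation stage and 5.17, 4.84, 4.99 and 5.06 in the secretory stage. It was detected on all maturation arrays and on 2 secretory arrays, and the stages did not overlap. The change was 1.01 (SE 0.0963, 2.02-fold, adjusted p 3.85e-05). The call was lost with normexp without negative controls (0.78), with an offset of 50 (0.58) and without background correction (0.32).

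The keratins of basal and appendage epithelium moved in both directions. Krt17, a keratin of skin appendages and of stressed epidermis, fell. It measured 11.79, 11.35, 11.46 and 11.49 in the maturation stage and 12.70, 12.54, 12.52 and 12.30 in the secretory stage. Every rat showed the lower value in the maturation stage, by 0.82 to 1.19. The change was -0.99 (SE 0.110, 1.99-fold, adjusted p 1.06e-04), and under median scaling, at -0.79, and without normalization between arrays, at -0.59, it was short of the fold threshold.

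Krt14, the type I keratin of basal cells, differed in the opposite direction by less than the threshold. It measured 14.48, 14.69, 14.70 and 14.69 in the maturation stage and 14.15, 14.11, 14.11 and 14.07 in the secretory stage, a difference of 0.53 (SE 0.0656, 1.45-fold, adjusted p 2.07e-04). Its deposited signals, 24674 to 26809 and 16127 to 17602, lay below the brightest signals of the arrays, 30310 to 33855, and whether the beads were near saturation was not tested. The change of Krt14 exceeded that of Krt17 by 1.52 (SE 0.159).

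Krt16, the stress-associated keratin that lies beside Krt17 in the genome, rose but only from below detection. It measured 5.59, 5.27, 5.71 and 5.48 in the maturation stage, detected on all 4 arrays, and 4.42, 4.36, 4.41 and 4.42 in the secretory stage, detected on none. The fold was at least 1.38 (bound 0.47, limma adjusted p 1.38e-05), with measured means of 5.51 and 4.40, and the fitted change was short of the fold threshold with an offset of 50 (0.53) and without background correction (0.41). Krt42, on the other side of Krt17, measured 7.53, 8.12, 7.68 and 7.22 against 6.85, 7.0, 6.68 and 6.66. The stages did not overlap, and the difference of 0.84 (1.79-fold, adjusted p 0.00448) was just short of the fold threshold. Thus the genes in the order Krt14, Ka11, Krt16, Krt17 and Krt42 had changes of 0.53, -0.01, at least 0.47, -0.99 and 0.84, Ka11 being undetected. The probe sequences were not used here, so cross-hybridization among these related genes was not tested.

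Krt15 and Krt19, keratins of basal and simple epithelium that stand side by side on chromosome 10, rose with wider spreads. Krt15 measured 5.58, 5.23, 6.09 and 5.01 in the maturation stage and was undetected in the secretory stage, at 4.77, 4.47, 4.57 and 4.63. The fold was at least 1.35 (bound 0.43, adjusted p 0.00985), with means of 5.48 and 4.61. Beside the bound and changes of background correction, the call was lost without maturation replicate 1 (0.81), maturation replicate 3 (0.66) or secretory replicate 2 (0.83). Krt19 measured 5.97, 5.99, 6.49 and 5.95 against 4.92, 4.74, 5.42 and 5.62, and was detected on 2 secretory arrays. Its change was 0.93 (SE 0.202, 1.90-fold, adjusted p 0.00685), and it was short of the fold threshold, at 0.79, without maturation replicate 3 or secretory replicate 2. Krt19 was also short of it with normexp without negative controls (0.73), with an offset of 50 (0.54) and without background correction (0.31). Of the 20 alternatives tried, 9 ended the call of Krt15 and 5 that of Krt19.

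Krt23, a type I keratin of several glandular epithelia, showed the reverse pattern without passing the fold threshold. It measured 4.58, 4.94, 5.08 and 4.53 in the maturation stage and 5.92, 5.73, 5.86 and 4.97 in the secretory stage. The stages overlapped through secretory replicate 4, and the difference was -0.84 (1.78-fold, adjusted p 0.0157). It passed without that array (-1.08), without maturation replicate 2 (-0.87) and without maturation replicate 3 (-0.93). Krt20, an intestinal keratin, was detected on all arrays with a difference of -0.20 (adjusted p 0.444).

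**Figure D3:**
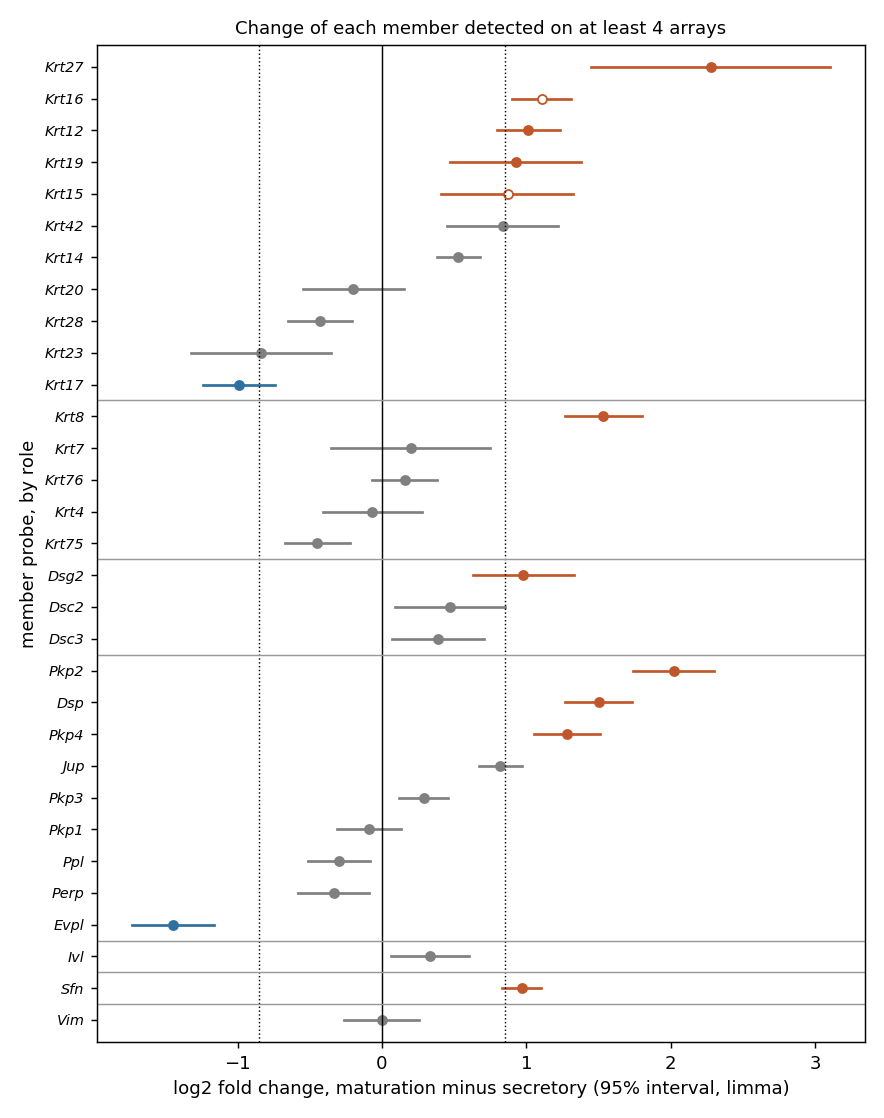
Change of each of the 31 member probes detected on at least 4 arrays, as log2 fold change (maturation minus secretory) with its 95% interval from limma, grouped by role. Orange is called higher, blue called lower and grey not called, open circles are undetected in the secretory stage, dotted lines mark 1.8-fold, and Krt27 has both the largest value, 2.28, and the widest interval, 1.45 to 3.10.

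Of the 16 type II keratins 1, Krt8, was called (6.25%, beside 7.75% of all probes). Krt8, the type II keratin of simple epithelia, measured 10, 9.84, 9.49 and 9.69 in the maturation stage and 8.38, 8.05, 8.14 and 8.32 in the secretory stage. The stages were well separated in all 4 rats, with within-rat differences from 1.34 to 1.79. The change was 1.53 (SE 0.118, 2.89-fold, adjusted p 9.78e-06). The usual partner of Krt8 is Krt18, for which the rule found no probe.

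Krt7, another simple-epithelial type II keratin, was read clearly on all arrays and did not separate the stages. It measured 6.77, 7.57, 7.57 and 7.59 in the maturation stage and 6.6, 7.16, 7.30 and 7.64 in the secretory stage. Rat 1 was the lowest in both. The difference was 0.20 (95% interval -0.35 to 0.75, adjusted p 0.663), and the change of Krt8 exceeded it by 1.33 (SE 0.385).

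Krt75, a type II keratin of the hair follicle's companion layer that is also known from enamel, was dim, at 4.76 to 5.14 in the maturation stage and 5.31 to 5.57 in the secretory stage. The stages did not overlap, and the difference was -0.45 (1.36-fold, adjusted p 0.00844). Krt80, a keratin of differentiating epithelia, was detected on 1 secretory array only, at 4.79 to 5.20 in that stage and 4.42 to 4.64 in the other, and is given no fold. The mucosal keratins Krt76 and Krt4 differed by 0.16 (adjusted p 0.335) and -0.07 (adjusted p 0.841).

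Most keratins of the suprabasal epidermis and of the hair shaft were undetected. The epidermal pair Krt1 and Krt10, with Krt2 and Krt77, and the mucosal Krt13 were undetected on all 8 arrays. So were the hair and nail keratins Krt32, Krt33b, Krt34, Krt35, Krt39, Krt40, Krt81, Krt82, Krt83, Krt84 and Krt86, and Krt90. With Krt24, Krt26, Ka11, Dsg4, Dsc1 and the second Dsg2 probe they make up the 23 undetected probes, whose values lay between 4.34 and 4.95, whose changes lay between -0.11 and 0.15, and whose lowest adjusted p was 0.0736. Krt31, Krt36 and Krt72 were detected on between 1 and 3 arrays, with differences of 0.08 and -0.08 for the first 2 and no fold for Krt72, which was undetected in the maturation stage.

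Stratifin rose. Sfn, the epithelial 14-3-3 protein that binds keratins and follows squamous differentiation, measured 7.05, 7.16, 7.15 and 7.20 in the maturation stage and 6.23, 6.22, 6.13 and 6.11 in the secretory stage. The spread within a stage was small beside the gap between stages. The change was 0.97 (SE 0.0589, 1.95-fold, adjusted p 2.18e-06). It was short of the fold threshold with normexp without negative controls (0.83), with an offset of 50 (0.72) and without background correction (0.47). Ivl, the envelope precursor involucrin, was detected on 4 maturation arrays and 1 secretory array and differed by 0.33 (adjusted p 0.0758).

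Vimentin, the intermediate filament of mesenchyme, read the same on average in both stages. Vim measured 13.05, 12.48, 12.55 and 12.65 in the maturation stage and 12.67, 12.70, 12.75 and 12.62 in the secretory stage. Maturation replicate 1 was the highest and the other 7 arrays lay within 12.48 to 12.75. The difference was 0.00 (95% interval -0.26 to 0.26, adjusted p 0.997), and it was 0.37 without normalization between arrays, a setting that moved the median change of all probes to 0.13.

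The genes around the keratins and desmosomes were taken by role, 48 genes in 4 lists, of which 5 rose and 6 fell. These 11 calls were 22.9% of the 48, beside 7.75% of all probes. By list, calls made up 22.2% of linkers and regulators and 12.5% of envelope and squamous genes. They made up 38.5% of other intermediate filaments and 20% of transcription factors. Of 9 linkers and regulators, kazrin (Kazn), which binds the desmosomal plakins, rose by 1.08 (adjusted p 3.89e-05), and dystonin (Dst), the plakin of the hemidesmosome, fell from 8.29 to 8.58 in the secretory stage to 6.69 to 6.89 in the maturation stage (change -1.67, 3.18-fold, adjusted p 5.24e-07). Fam83h, which organizes keratin in ameloblasts, differed by 0.82 (1.76-fold, adjusted p 3.67e-05), and pinin (Pnn), a protein of desmosomes and of nuclear speckles, by -0.83 (1.78-fold, adjusted p 4.75e-06), both just short of the fold threshold. Krtcap2 differed by -0.45 (adjusted p 2.12e-04) and Macf1 by -0.38 (adjusted p 0.00459), both without overlap of the stages but short of the fold threshold. Plectin (Plec), Csnk1a1 and Tchp did not pass the adjusted p. Of the 6 linkers and regulators that passed it, 2 were higher and 4 lower.

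Of 16 genes of the cornified envelope and squamous differentiation, 0 rose and 2 fell, and 9 were undetected on all arrays. Dermokine (Dmkn), a secreted protein of the upper epidermis, measured 5.42, 4.70, 4.98 and 5.06 in the maturation stage and 7.93, 7.58, 7.5 and 7.11 in the secretory stage, a fall of 5.61-fold (change -2.49, adjusted p 8.39e-06). Lgals7, the galectin of stratified epithelia, fell by 1.25 (2.38-fold, adjusted p 2.53e-04). Cstb, the protease inhibitor cystatin B, differed the other way by 0.55 (1.47-fold, adjusted p 3.61e-04), without overlap of the stages but short of the fold threshold. Sprr1a, the next brightest of the list after Cstb, differed by -0.40 (adjusted p 0.00123), also without overlap. At the adjusted p alone 1 gene of the list was higher and 3 were lower. The summed level of the list on the linear scale was 11691 to 13523 in the maturation stage and 8500 to 9698 in the secretory stage. That sum is carried almost wholly by Cstb (mean log2 13.56 and 13.01) and does not describe the rest of the list. Of the other members of the list, the crosslinking enzyme Tgm1 differed by -0.35 (adjusted p 0.261) and the precursors Sprr1b and Sprr3 and the enzyme Tgm3 were undetected.

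Of 13 other intermediate filament genes 3 rose and 2 fell. Synemin (Synm), which joins filaments of vimentin and desmin, rose by 1.53 (2.89-fold, adjusted p 1.63e-05), the lens filament protein Bfsp1 by 1.08 (adjusted p 2.54e-05), and desmin (Des), the muscle filament, was at least 2.13-fold higher, being undetected in the secretory stage (means 6.14 and 4.91, adjusted p 2.20e-04). Nestin (Nes), a filament of progenitor cells and odontoblasts, fell by 1.31 (adjusted p 4.64e-05), and the lamin gene Lmnb2 fell by 0.89 (adjusted p 5.59e-05). The call of Lmnb2 was lost under each of the other background corrections and normalizations, and without maturation replicate 2 or secretory replicate 3. Des stood on the list of muscle markers too, of which it alone of 8 was called.

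Of 10 transcription factors of stratified epithelium, Klf5 rose and Klf4 fell. Klf5, a factor of proliferating epithelium, measured 10.07, 10.05, 9.32 and 10.66 in the maturation stage and 6.88, 7.17, 6.30 and 6.92 in the secretory stage. The change was 3.21 (SE 0.270, 9.23-fold, adjusted p 1.76e-05). Klf4, a factor of the differentiating epidermal layers, measured 9.64 to 9.99 against 11.08 to 11.26, a fall of 2.52-fold (adjusted p 2.53e-06). Tp63, the master factor of stratified epithelia, differed by 0.42 (adjusted p 0.00690), short of the fold threshold.

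**Figure D4:**
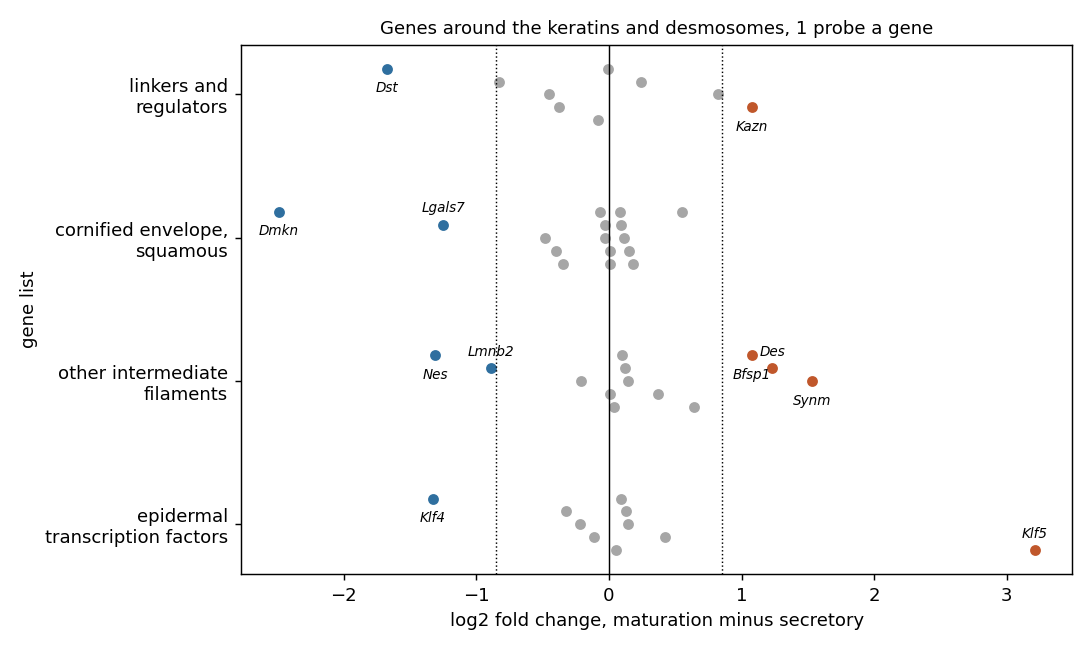
Log2 fold change (horizontal axis, maturation minus secretory) of the 48 genes around the keratins and desmosomes, each by its brightest probe, in 4 lists on the vertical axis. Orange points are the 5 genes called higher, blue the 6 called lower, grey the other 37, with dotted lines at 1.8-fold, and the ends are Klf5 at 3.21 and Dmkn at -2.49.

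Markers of other cells moved with the stages as well. Of all 66 marker genes, those of ameloblasts included, 24 were called (36.4%, beside 7.75% of all probes). Of 8 macrophage and leukocyte genes 6 rose, led by Cd68 at 2.19, and their summed level on the linear scale, carried here and in the lists that follow by the brightest probes, was 10390 to 13433 in the maturation stage and 3763 to 4520 in the secretory stage. Of 4 osteoclast genes, Ctsk and Mmp9 rose, and Calcr was undetected. Of 12 genes of keratinized oral epithelium and skin, Lypd3 rose, Ly6d, Dmkn and Lgals7 fell, and Casp14, Sprr1b, Sprr3 and Tgm3 were undetected, with a summed level of 1160 to 1319 against 1561 to 2350. Ly6d, undetected in the maturation stage, was at least 25.2-fold lower there (means 4.35 and 9.60, adjusted p 3.42e-07).

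The lists for tissue that is not epithelial were mixed. Of 9 fibroblast and dental mesenchyme genes Thy1 and Prrx1 rose, and the summed level was 78265 to 79561 against 62866 to 72253. Of 5 endothelial genes Vwf rose and Cdh5 was undetected (3294 to 4521 against 1866 to 2758). The call of Vwf (1.85-fold) was lost without maturation replicate 3, secretory replicate 1 or secretory replicate 4, and without background correction. Of 7 odontoblast and osteoblast genes Ibsp rose, Dspp fell and Sp7 was undetected (14643 to 17243 against 9026 to 23919). Of 5 erythroid genes 0 passed the adjusted p (48818 to 56748 against 42804 to 59304), and for 8 muscle genes the sums were 320 to 1018 against 282 to 598, with Myh2 and Myh4 undetected. The part of these cells in the changes of the members was not tested.

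A further 13 probes for keratins, desmosomal cadherins or loricrin carry locus names that the rule does not reach, and were looked at after their values were seen. Of these 11 were undetected on all arrays, among them probes annotated to loricrin and to a Krt18-like gene. Krt79 was detected throughout with a difference of 0.12 (adjusted p 0.686). The remaining probe, LOC679010, described in the array's annotation as similar to desmoglein-1, measured 4.60, 5.05, 5.73 and 5.63 in the maturation stage and 6.51, 6.93, 6.23 and 6.72 in the secretory stage. Its fall was 2.54-fold (change -1.34, SE 0.250, adjusted p 0.00266). It was the 1 call among these 13 probes, 7.69% beside 7.75% of all probes.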

How the data were processed

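For all 8 arrays the authors deposited the mean signal of the beads as an intensity, uncorrected for background and not normalized, with a detection p-value, a bead number and a bead standard error for each probe. Bead-summary software and genome build are not given in the sources used here. Background correction by limma's neqc (limma 3.58.1 in R 4.3.3) used negative controls that it inferred from those detection p-values. Quantile normalization and the log2 scale followed an offset of 16, which compresses changes near background. All 22523 probes were fitted with lmFit and eBayes without pairing, as the study's methods name no paired test, and adjusted by Benjamini-Hochberg. Undetected in a stage means a detection p-value of at least 0.05 on its 4 arrays, and the fold was then bounded by the lowest signal of a detected probe on each array. An adjusted p printed beside a bound is that of the fitted change.

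Each rat gave both stages, so replicate numbers pair the samples: same-rat deviations correlated at 0.129 to 0.234 over 11233 probes. Current symbols came from the GRCr8 gene table by gene ID, for 17430 probes. Every member is accounted for, called members with all 8 values. The members, lists and pairs were chosen with earlier results of these data known. List genes were read by their brightest probe. The number of arrays limits the precision. The alternatives were other background corrections, offset, normalizations, tests and thresholds, and each array left out.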

Additional observations from a re-analysis of the deposited data

Results flagged for a closer look

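Within a stage, 5 of 67 sets of 4 values held an array that stood apart by Dixon's ratio, where chance gives about 3.35. Krt14 read 14.48 on maturation replicate 1 and 14.69 to 14.70 on the others. Krt7 read 6.77 on maturation replicate 1 and 7.57 to 7.59 on the others. Krt19 read 6.49 on maturation replicate 3 against 5.95 to 5.99, and without that array its change was 0.79, short of the fold threshold. Krt31 read 5.08 on secretory replicate 4 against 4.74 to 4.76. Krt72 read 5.29 on the same array against 4.62 to 4.69. In Krt31 and Krt72 the high value was near background, and neither gene was called.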

How the results depend on the processing

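Of 13 members called, 8 were called with normexp without negative controls, 7 with an offset of 50 and 6 without background correction (Dsg2, Krt12, Krt15, Krt19 and Sfn were lost in all 3), while calls over all probes went from 1745 to 1523, 1263 and 867, and with no fold threshold 23 of the 59 members were called, those 13 among them. Dsp, Krt27, Krt8, Pkp2 and Pkp4 kept their call under all 20 alternatives. With each array left out in turn, 12 to 14 members, 10 to 12 of the surrounding genes and 22 to 26 marker genes were called. Of the 11 surrounding genes called, 4 were called without background correction, and with no fold threshold 19 of the 48 surrounding genes were called, those 11 among them. Without background correction the changes of Evpl, Sfn, Krt16, Krt12, Dsg2, Krt19 and Krt15 were -0.57, 0.47, 0.41, 0.32, 0.32, 0.31 and 0.29. Krt17 was lost and Jup and Krt42 gained under median scaling and without normalization between arrays, the latter gaining Dsc2 too, where 13 and 14 members were called higher and 1 lower, and where 1610 of 2075 and 2268 of 2600 calls over all probes were higher, against 1035 of 1745. Under cyclic loess Jup and Krt42 (0.90) were gained and Krt15 lost. Krt42 was also gained without maturation replicate 1 or 4 or secretory replicate 1 or 2 (0.86 to 0.97). The Student test of the methods called 12 members and lost Krt15. With the rat as a block the same 13 members, 11 surrounding genes and 24 marker genes were called. The replicate pairing changed no call among these, while calls over all probes went from 1745 to 1750. The chip as a block was not run, since the headers name no chip.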
